A study of Drosophila melanogaster with 8 samples.

Results

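The cytosolic ribosomal protein genes of Drosophila melanogaster were followed in larval midguts of 4 Pngl genotypes. Members were all genes of the count table whose FlyBase symbol begins with RpL or RpS followed by a number or a P, together with sta, which encodes RpSA. This gave 93 of 17713 genes, 54 for the large subunit and 39 for the small subunit. They comprise 79 genes counted here as core (47 large and 32 small), 10 second copies of a paralog pair (4 large and 6 small) and 4 genes named as "-like" (3 large and 1 small).

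Cytosolic ribosomes are made of a large and a small subunit. Each is an assembly of ribosomal RNA with a fixed set of proteins, most of which are needed in equal numbers. In flies, loss of 1 copy of many of these genes gives the Minute phenotype of slow development and thin bristles. Several of the proteins are encoded by a gene pair of which 1 copy is known mainly from the germline or testis, and in other cells the messenger RNAs of these genes are under coordinated translational control through the TOR pathway.

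RNA came from midguts of larvae in the third instar, male and female mixed, 96 h after egg laying. The genotypes were y w, wild type for Pngl; Pngl+/-, with 1 Pngl[ex14] allele over a CyO balancer carrying a Kr>GFP marker; Pngl-/-, homozygous for Pngl[ex14]; and Pngl Dp/+, homozygous for Pngl[ex14] with 1 copy of a genomic duplication of Pngl. All were made in the y w background as labelled, and Pngl encodes the fly N-glycanase. Each genotype had 2 libraries of pooled midguts. The methods and the labels differ on the pool size and on the insertion site of the duplication, so the exact rescue line is uncertain, and only Pngl+/- carries the balancer.

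Between 20414011 and 28382919 counts on genes were available per library. The targeted gene did not set the homozygotes apart by loss of its mRNA: Pngl was at 58.3 and 56.7 CPM (counts scaled to a common library size) in the libraries labelled Pngl-/-, against 33.6 and 31.4 in y w, 45.0 and 41.5 in Pngl+/- and 21.1 and 20.7 in Pngl Dp/+. The study describes Pngl[ex14] as a null allele, the gene count goes against a loss of its mRNA, and Pngl-/- below means the libraries labelled so. All 8 enterocyte markers were detected, with summed levels of 14139 to 15078 CPM in y w and 19981 to 25947 CPM in the other libraries. Markers of neighbouring tissues were also present: 6 fat body markers summed to 24467 to 24541 CPM in Pngl-/- and 30044 to 52959 CPM in the controls, and 6 muscle markers to 3771 to 3818 CPM in Pngl-/-, 3690 to 3740 CPM in Pngl+/- and 6578 to 6895 CPM in y w and Pngl Dp/+. Markers of other cells also stood apart in Pngl-/-: 3 progenitor markers summed to 17.0 and 17.4 CPM against 24.3 to 42.5 in the controls, 3 hemocyte markers to 21.0 and 20.7 against 40.5 to 46.5, 2 copper cell markers to 133.6 and 133.4 against 74.0 to 95.8, and 7 enteroendocrine markers to 97.3 and 96.3 against 64.3 to 77.8. Of the 2 copper cell markers, only 1 passed the filter of at least 5 CPM in at least 2 libraries. Other markers separated the controls. The 5 salivary gland markers summed to 3552 and 3674 CPM in Pngl-/-, 3591 to 3661 in y w and 6262 to 6789 in Pngl+/- and Pngl Dp/+. The 3 Malpighian tubule markers summed to 70.1 and 71.9 CPM in Pngl Dp/+ and 119 to 148 CPM elsewhere. In bulk RNA, fewer cells of a type and less RNA per cell cannot be told apart. The part of tissue makeup in the results below was not tested.

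The ribosomal protein genes took a larger share of the counts in the libraries labelled Pngl-/- than in any control library. Their share was 9.20% and 9.14% in Pngl-/-, 7.52% and 7.84% in y w, 7.03% and 7.36% in Pngl+/-, and 7.94% and 7.44% in Pngl Dp/+. Means were 9.17% ± 0.04 (SD, n = 2), 7.68% ± 0.23, 7.19% ± 0.23 and 7.69% ± 0.35, so both Pngl-/- libraries stood above all 6 control libraries. The y w and Pngl Dp/+ libraries overlapped, and both Pngl+/- libraries were below them. The mean share in Pngl-/- was 1.19-fold that of y w, 1.27-fold that of Pngl+/- and 1.19-fold that of Pngl Dp/+. With 2 libraries against 2, an exact permutation test cannot go below p = 0.3333, and none was run. Counting error was far smaller than these gaps, with a 95% Wilson interval of 7.504% to 7.527% for the first y w library, and covers sampling of reads only.

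**Figure D1:**
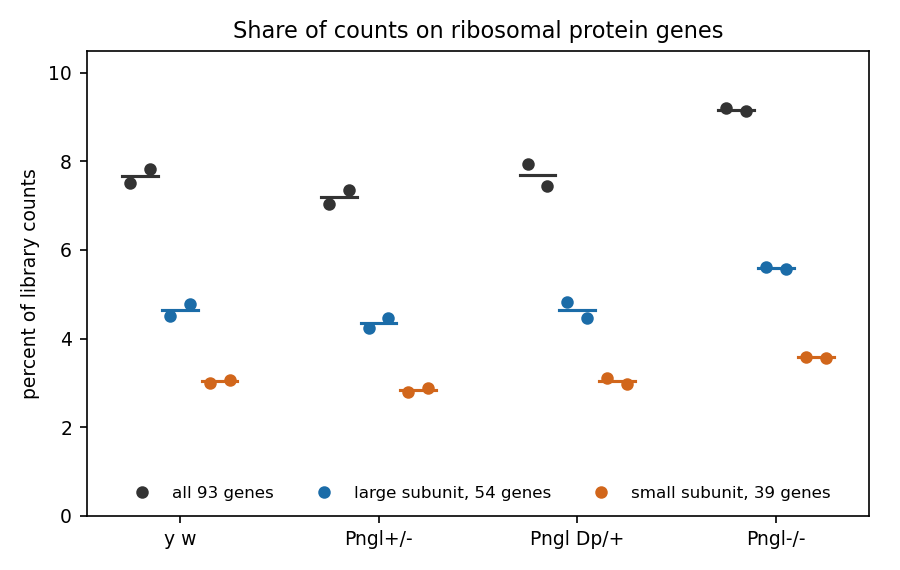
Percent of each library's counts that fell on all 93 ribosomal protein genes and on the large and small subunit genes, by genotype; each point is 1 library and each bar the mean of 2. The Pngl-/- libraries lie at 9.14% and 9.20%, above the range of 7.03% to 7.94% of the 6 control libraries.

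Both subunits had a higher share. Large subunit genes held 5.61% and 5.58% of counts in Pngl-/- against 4.23% to 4.82% in the controls, and small subunit genes held 3.59% and 3.56% against 2.80% to 3.12%. The ratio of large to small subunit counts was 1.563 and 1.564 in the Pngl-/- libraries and ran from 1.501 to 1.558 in the controls. Both Pngl-/- ratios lay just above the highest control, by less than the controls differed among themselves.

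In the test of each gene, nearly all tested ribosomal protein genes were higher in Pngl-/- than in each control. Of the 93 members, 84 passed the filter (at least 5 CPM in at least 2 libraries) and were tested among 7665 genes. Against y w, 58 of the 84 were called higher and 0 lower with a minimum fold change of 1.5 and an adjusted p no higher than 0.05 (edgeR quasi-likelihood test, Benjamini-Hochberg), where 17.9% of all tested genes were called higher and 24.4% lower. Their median log2 fold change was 0.66, a 1.58-fold rise, beside -0.01 for all tested genes. At the same adjusted p with no minimum fold change, 82 were higher and 0 lower (38.9% and 39.5% of all genes). The rise over y w was thus shared by nearly all members, and many sat close to the 1.5-fold line.

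The same members were measured against the other controls, which share the Pngl-/- libraries. Against Pngl Dp/+, 45 were called higher and 0 lower, with 12.1% and 22.2% of all genes called, and the median log2 fold change was 0.60. Against Pngl+/-, 2 were called higher and 0 lower, with 7.58% and 13.1% of all genes called, and the median was 0.38. At the adjusted p alone, 83 were higher than in Pngl Dp/+ (35.2% of all genes) and 79 higher than in Pngl+/- (26.2% of all genes), with 0 lower in either. The difference from Pngl+/- had the same sign in most members but was smaller, and 82 of the 84 lay below the 1.5-fold line or failed the test.

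Fold changes were held in a narrow band. Against y w the standard deviation of log2 fold change was 0.22 over the 84 members and 1.02 over all tested genes. Against Pngl+/- it was 0.16 and 0.70, and against Pngl Dp/+ it was 0.13 and 0.89. The band was not particular to the members. Over 72 tested mitochondrial ribosomal protein genes the standard deviation was 0.19, 0.18 and 0.17 in the same order. Medians of large and small subunit genes were 0.67 and 0.66 against y w, 0.41 and 0.36 against Pngl+/-, and 0.62 and 0.58 against Pngl Dp/+. Position made little difference: the medians against y w were 0.68 on 2L, 0.69 on 2R, 0.65 on 3L, 0.68 on 3R and 0.64 on X, with 0.20 for RpS3A, alone on chromosome 4.

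**Figure D2:**
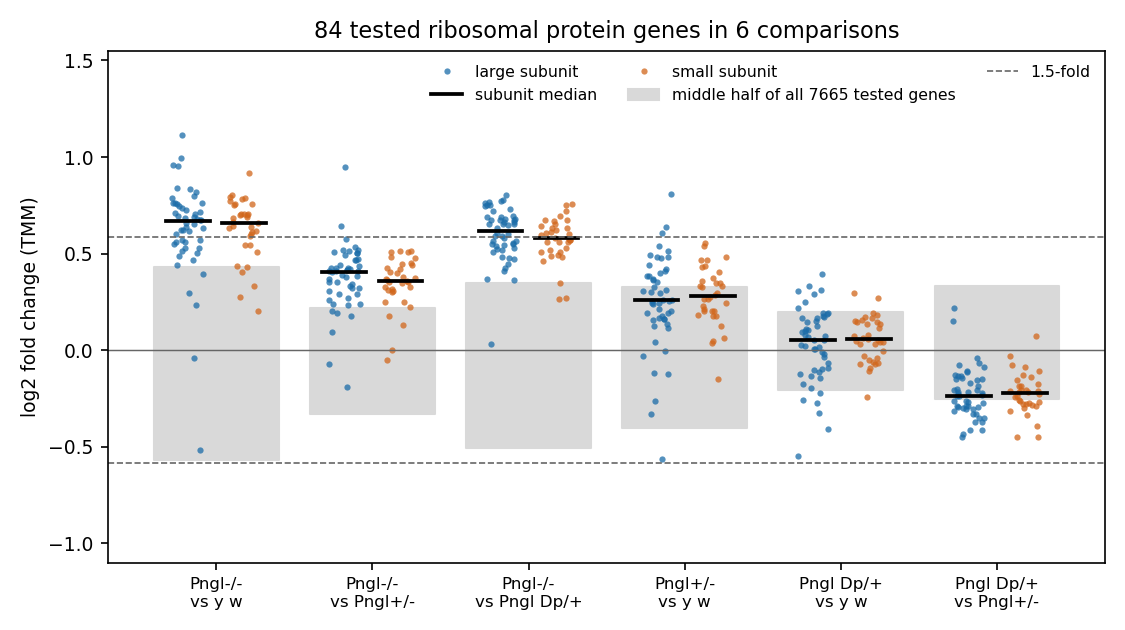
Log2 fold change of each of the 84 tested ribosomal protein genes (points, large subunit blue, small subunit orange) in 6 comparisons, with subunit medians (black bars), the middle 50% of all 7665 tested genes (grey) and the 1.5-fold line (dashed). In the 3 comparisons with Pngl-/- the subunit medians lie between 0.36 and 0.67, and RpL22 lies below the rest.

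The size of the rise, and for a few members its sign, depended on how libraries were scaled. Composition factors ran from 1.11 to 1.16 in y w and Pngl Dp/+ and from 0.87 to 0.89 in Pngl+/- and Pngl-/-. Without these factors, the median of all tested genes against y w was -0.39 and that of the members 0.28, and 2 members (RpL29 and RpLP1) were called higher. Against Pngl Dp/+ the medians were -0.36 and 0.26, with 0 called, and against Pngl+/- they were -0.07 and 0.36, with 2 called, RpL24-like among them. A scaling moves all genes of a library alike, so the distance of the members' median from that of all genes stays the same by construction, at 0.67, 0.43 and 0.62 for the comparisons with y w, Pngl+/- and Pngl Dp/+ among the 7665 tested genes. Over a wider set of genes it was larger, at 0.77 against y w with a minimum of 1 CPM and 0.98 with no filter. Fold changes below use TMM factors.

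**Figure D3:**
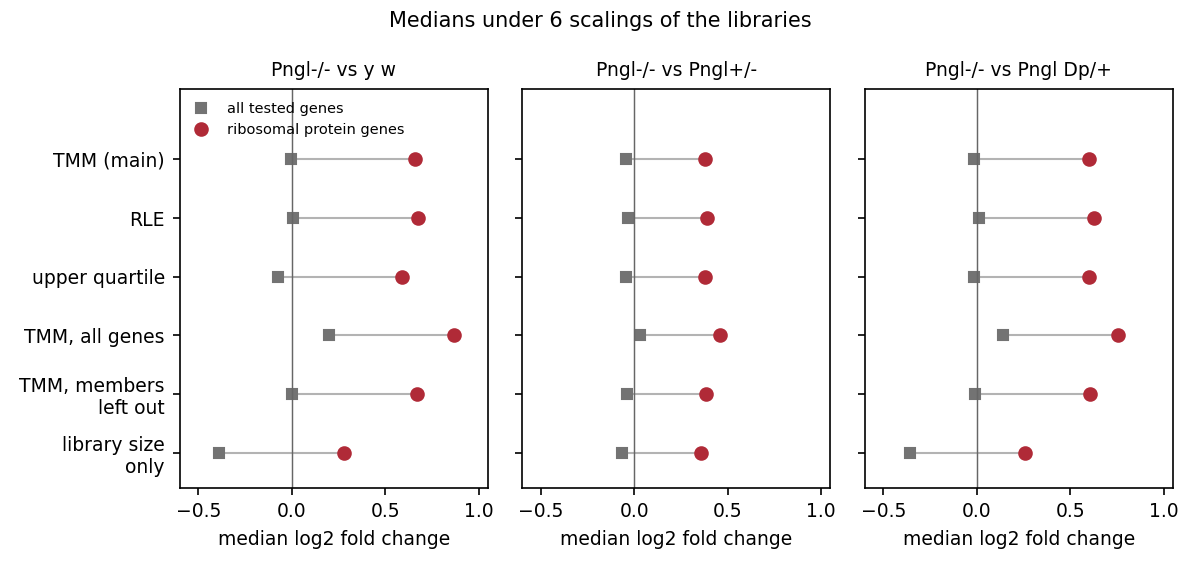
Median log2 fold change of the 84 ribosomal protein genes (red circles) and of all 7665 tested genes (grey squares) for Pngl-/- against each control under 6 scalings of the libraries. The pair moves together along the axis, from -0.39 and 0.28 with library size only to 0.20 and 0.87 with TMM factors from all genes in the comparison with y w.

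Library by library, 79 of the 84 members were higher in both Pngl-/- libraries than in all 6 control libraries, against 23.6% of all tested genes, and 0 were lower in both (28% of all genes). The exceptions were RpL22, RpL3, RpLP2, RpS15Ab and RpS3A. Without composition factors the number above all controls was 66 (12.0% of all genes), still with 0 below (38.3% of all genes).

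Controls also differed from each other. At an adjusted p of 0.05 alone, Pngl+/- had 68 members higher and 4 lower than y w (35.5% and 36.0% of all genes). With the 1.5-fold minimum, 3 members (RpL29, RpL38 and RpL23, all on 2R) were called higher and 0 lower, with 13.0% and 17.5% of all genes called, and the median log2 fold change was 0.26. That median was -0.10 without composition factors, when the median of all genes was -0.36. Members on chromosome 2, which carries the balancer in Pngl+/-, had a median of 0.33 and the rest a median of 0.24. By arm, medians were 0.40 on 2R, 0.29 on 2L, 0.24 on 3L, 0.27 on 3R and 0.23 on X. The arm 2R was also highest in Pngl Dp/+ against y w, where neither genotype carries the balancer. There the medians were 0.15 on 2R, 0.02 on 2L, 0.08 on 3L, 0.06 on 3R and 0.03 on X. The part of the balancer was not tested. In Pngl Dp/+ against y w, 0 members were called in either direction (6.78% and 5.68% of all genes), with a median of 0.05. At the adjusted p alone 29 were higher and 9 lower (27.4% and 25.2% of all genes), and at an unadjusted p under 0.05 there were 32 and 11. The Pngl+/- libraries were thus nearer to Pngl-/- than the other controls on this scale. In Pngl Dp/+ against Pngl+/-, 0 members were called (14% higher and 7.91% lower of all genes), and the median was -0.23. At the adjusted p alone 2 were higher and 70 lower (32.7% and 31.3% of all genes), and at an unadjusted p under 0.05 there were 2 and 71.

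Expressed per length of merged annotated exons, most members lay near a common level, with a few far from it. In y w the median over tested members was 819.8 CPM per kb of exon, and 68 of 84 lay within 2-fold of it. The shortest protein of the ribosome, RpL41, was highest at 6560 CPM per kb, followed by RpL39 at 2435 and the stalk protein RpLP2 at 1926. RpLP0-like was lowest at 19.1 CPM per kb, then RpS15Ab at 70.8 and RpL24-like at 84.5. The order of levels was nearly the same in every genotype, with Spearman's rho of 0.97 to 0.99 between genotype means over the 84 genes, which come from the same libraries.

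The 5 members with the largest mean log2 fold change over the 3 comparisons were RpL24-like, RpLP1, RpL34b, RpL29 and RpL13. The first of these, RpL24-like (FBgn0037899, 3R from 11430740 to 11431582 in dm6), is related to yeast Rlp24, which takes part in assembly of the large subunit and is not part of the mature ribosome. It was at 117.4 and 115.2 CPM in Pngl-/-, 66.5 and 64.1 in y w, 60.3 and 59.9 in Pngl+/-, and 70.9 and 69.2 in Pngl Dp/+. Both Pngl-/- libraries were above all 6 controls, of which Pngl+/- was lowest and Pngl Dp/+ highest. Log2 fold changes in Pngl-/- were 0.83 (SE 0.04, adjusted p = 3.03e-11) against y w, 0.95 (SE 0.04, adjusted p = 1.98e-11) against Pngl+/- and 0.73 (SE 0.04, adjusted p = 1.74e-10) against Pngl Dp/+ by edgeR.

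RpLP1 (FBgn0002593, 2L from 419952 to 420864), which forms the lateral stalk of the large subunit with RpLP0 and RpLP2, was at 2456 and 2289 CPM in Pngl-/-, 1083 and 1295 in y w, 1569 and 1614 in Pngl+/-, and 1526 and 1306 in Pngl Dp/+. All control libraries lay below the Pngl-/- pair, with log2 fold changes of 1.00 (SE 0.08) for y w, 0.58 (SE 0.08) for Pngl+/- and 0.74 (SE 0.08) for Pngl Dp/+. Its y w libraries differed from each other by more than those of Pngl+/-. RpLP0, the base of the stalk, was at 1993 and 1962 CPM in Pngl-/- and 1153 to 1516 CPM in the controls, with log2 fold changes of 0.67, 0.41 and 0.77 in the same order. RpLP2 did not follow: its Pngl-/- libraries, at 1705 and 1456 CPM, overlapped those of Pngl+/- at 1443 and 1881, and its log2 fold change was 0.44 (SE 0.14) against y w and -0.07 (SE 0.14, adjusted p = 0.669 by edgeR) against Pngl+/-.

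RpL29 (FBgn0016726, 2R from 21293768 to 21294404) had the largest rise over y w of all members, 1.116 (SE 0.04). Its levels were 985.1 and 983.5 CPM in Pngl-/-, 450.0 and 458.3 in y w, 799.7 and 792.2 in Pngl+/-, and 607.2 and 587.2 in Pngl Dp/+. The libraries fell into 4 steps that did not overlap, with y w lowest and Pngl-/- highest. Against Pngl+/- its log2 fold change was 0.31 (SE 0.04), under the 1.5-fold line, and Pngl+/- was itself 0.81 (SE 0.04) above y w. RpL13, on 2L, rose by 0.76 (SE 0.10) over y w, with 1482 and 1409 CPM in Pngl-/- and 752.1 to 1084 CPM in the controls.

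Members chosen for their roles rose like the rest. RpL32, often used as a reference gene in fly expression work, was at 1463 and 1505 CPM in Pngl-/- and 848.8 to 1059 CPM in the controls, with log2 fold changes of 0.76 (SE 0.04), 0.51 (SE 0.04) and 0.69 (SE 0.04) against y w, Pngl+/- and Pngl Dp/+. RpL40 and RpS27A, made as fusions to ubiquitin, differed from y w by log2 fold changes of 0.76 and 0.68. RpS6, the small subunit protein phosphorylated by S6 kinase, was at 0.64, RpS12, known in flies for its part in cell competition, at 0.76, RpL41 at 0.82 and sta at 0.70, and all 7 were called against y w. Against Pngl+/- these 7 had log2 fold changes of 0.33 to 0.51, with adjusted p between 4.54e-08 and 0.000117 (edgeR), and none reached 1.5-fold.

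At the other end were RpL22, RpS3A, RpS15Ab, RpLP2 and RpL3. RpS3A (FBgn0017545, chromosome 4 from 65225 to 67207), the only member on chromosome 4, was at 2082 and 2145 CPM in Pngl-/- and 2197 and 2032 in Pngl+/-, which overlap, with 1845 and 1828 in y w and 1744 and 1765 in Pngl Dp/+. Log2 fold changes in Pngl-/- were 0.20 (SE 0.04) against y w, -0.00 (SE 0.04, adjusted p = 0.993 by edgeR) against Pngl+/- and 0.27 (SE 0.04) against Pngl Dp/+. It belongs to the small subunit and did not move with it against Pngl+/-.

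RpL3 (FBgn0020910, 3R from 11221894 to 11225173), a protein near the catalytic centre of the large subunit, was set apart in the controls. It was at 747.9 and 778.3 CPM in y w, 487.7 and 546.4 in Pngl+/-, 621.9 and 527.9 in Pngl Dp/+, and 742.3 and 739.9 in Pngl-/-. Libraries of Pngl+/- and Pngl Dp/+ were all below those of y w, with log2 fold changes of -0.56 (SE 0.06) and -0.41 (SE 0.06) that stayed under the 1.5-fold line, and Pngl-/- was just under y w. The log2 fold change of Pngl-/- was -0.04 (SE 0.06, adjusted p = 0.554 by edgeR) against y w, 0.52 (SE 0.06) against Pngl+/- and 0.37 (SE 0.06) against Pngl Dp/+. Exons of other genes overlap RpL3 over 84 bases on its own strand and 412 on the other. Every read touching a gene's merged exons was counted, and the use of strand is not given. RpL6 and RpS4, named after their values were seen, also lay under y w in the Pngl+/- libraries, passing the adjusted p alone, with log2 fold changes of -0.26 and -0.15. With TMM factors and unlike RpL3, they were above y w in Pngl-/-, by 0.23 and 0.28. In Pngl Dp/+ against y w they stood at -0.33 and -0.07. Without composition factors RpL6, RpS4 and RpL3 lay under y w in Pngl-/-, at -0.15, -0.11 and -0.42.

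RpL22 (FBgn0015288, X from 762560 to 765130) varied more between libraries of a genotype than between genotypes. Its levels were 58.7 and 191.9 CPM in y w, 63.9 and 138.0 in Pngl+/-, 122.0 and 52.9 in Pngl Dp/+, and 112.6 and 63.9 in Pngl-/-. Every genotype had 1 high and 1 low library. Between Pngl-/- and y w it gave a log2 fold change of -0.52 (SE 0.46, adjusted p = 0.311 by edgeR), which ran from -1.09 to 0.62 when each library was left out in turn, so no direction can be given for this gene. RpL22 overlaps exons of another gene over 377 bases on its own strand.

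The high and low libraries of RpL22 were those of a wider pattern among ribosomal protein genes. Replicate 2 exceeded replicate 1 in y w and Pngl+/-, and replicate 1 exceeded replicate 2 in Pngl Dp/+ and Pngl-/-, for 37 of 84 members (44.0%), and the opposite pattern held for 3. Among 898 other tested genes with a mean of at least 100 CPM, the numbers were 141 (15.7%) and 164 (18.3%). After RpL22, where the log2 gap between replicates was 1.71, 1.11, -1.21 and -0.82 in y w, Pngl+/-, Pngl Dp/+ and Pngl-/-, the gap was widest in RpLP2 at 0.47, 0.38, -0.29 and -0.23, and next in RpL18 at 0.36, 0.28, -0.37 and -0.09.

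Without RpL22, the replicate gaps of the other 83 members in y w correlated with those in Pngl+/- at Pearson's r = 0.75, with those in Pngl Dp/+ at -0.74 and with those in Pngl-/- at -0.63. For the 898 other genes the same values were 0.41, -0.24 and -0.40. By Spearman's rho the contrast was smaller, at 0.73, -0.71 and -0.49 for the 83 members and 0.55, -0.55 and -0.28 for the other genes. Shared replicate gaps were thus not particular to the members. These correlations are across genes measured in the same libraries, genes are not independent replicates, and the cause was not tested. The gaps were small for most members, with a median size of 0.03 to 0.07 on the log2 scale, against member medians of 0.38 to 0.66 between Pngl-/- and its controls.

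**Figure D4:**
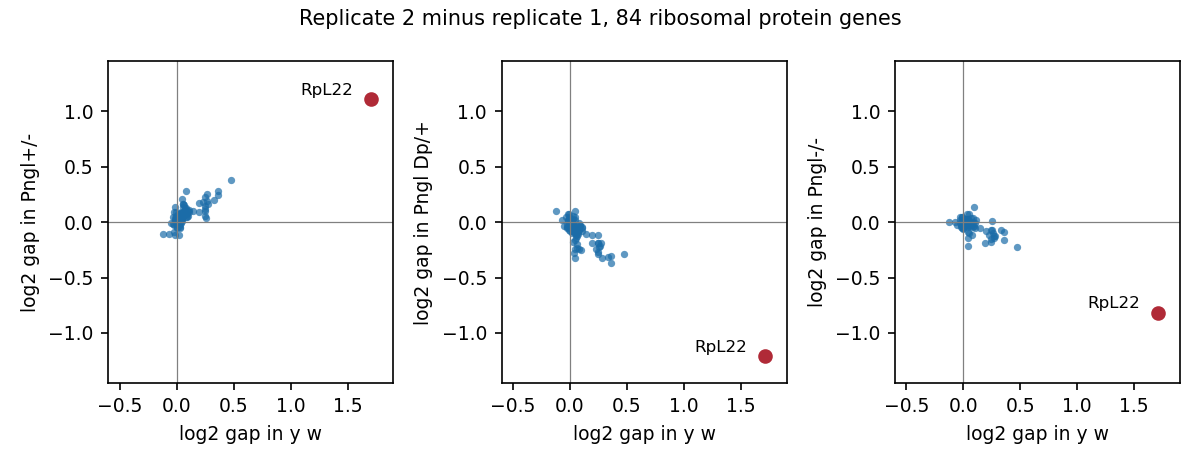
Log2 difference of replicate 2 from replicate 1 in y w (horizontal axis) and in each other genotype (vertical axis) for the 84 tested ribosomal protein genes, with RpL22 in red. In 37 of the 84 genes the gap is positive in y w and Pngl+/- and negative in Pngl Dp/+ and Pngl-/-, and RpL22 lies far from the other members, at 1.71 in y w.

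Fold changes of members also varied with exonic length, taken as the merged length of all annotated exons of a gene. Shorter members tended to have larger log2 fold changes against y w: Spearman's rho with exonic length was -0.42 in Pngl-/-, -0.48 in Pngl+/- and -0.46 in Pngl Dp/+ over the 84 members. Over all tested genes with a length, rho was -0.47, -0.45 and -0.22. For Pngl-/- against Pngl+/- and Pngl Dp/+, rho was 0.18 and 0.01 over the members and -0.24 and -0.45 over all genes. These are correlations across genes, and the comparisons share libraries.

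Gene pairs were compared within each library, where scaling between libraries has no part. In the pair RpL34b and RpL34a, both copies were well expressed, and RpL34a held 22.9% and 20.3% of the pair's counts in y w, 20.3% and 18.9% in Pngl+/-, 17.4% and 19.2% in Pngl Dp/+, and 16.5% and 17.95% in Pngl-/-. Shares in Pngl-/- overlapped those in Pngl Dp/+. RpL34b (FBgn0037686, 3R from 9400237 to 9401226) rose by 0.95 (SE 0.08) over y w and RpL34a by 0.55 (SE 0.04), under the 1.5-fold line.

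RpS15Ab, the minor copy of the RpS15A pair, held 4.42% and 4.25% of the pair's counts in Pngl-/- and 4.93% to 5.51% in the 6 control libraries, so its share was lowest in Pngl-/-. It was at 69.8 and 68.4 CPM in Pngl-/-, 72.2 and 71.0 in Pngl+/-, 57.4 and 57.7 in Pngl Dp/+, and 51.6 and 50.8 in y w. RpS15Aa had a log2 fold change of 0.64 (SE 0.04) against y w and RpS15Ab one of 0.43 (SE 0.04).

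RpS14a and RpS14b lie side by side on X (7933742 to 7934677 and 7934898 to 7935792), and the division of reads between such near-identical copies is uncertain. RpS14a held 63.3% to 65.97% of the pair's counts in all 8 libraries, with no separation of genotypes. Log2 fold changes against y w were 0.71 for RpS14a and 0.77 for RpS14b.

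RpLP0-like (FBgn0033485, 2R from 10098518 to 10099590), related to the yeast assembly factor Mrt4, was at 25.8 and 25.9 CPM in Pngl-/-, 18.9 and 17.4 in y w, 21.4 and 19.9 in Pngl+/-, and 14.5 and 15.6 in Pngl Dp/+. It was called only against Pngl Dp/+, with a log2 fold change of 0.77 (SE 0.07), and stood at 0.52 (SE 0.07) and 0.32 (SE 0.07) against y w and Pngl+/-.

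The other second copies were close to absent, and went the other way. RpL10Aa, RpL22-like, RpL37-2, RpS5b, RpS10a, RpS19b and RpS28a did not pass the filter, and neither did RpL7-like and RpS28-like. RpL22-like had 51 and 56 counts in y w, 16 and 14 in Pngl+/-, 34 and 54 in Pngl Dp/+, and 1 and 1 in Pngl-/-. RpS19b had 60 and 70, 26 and 19, 39 and 47, and 2 and 2 counts in the same order. RpL37-2 had 33 and 34, 12 and 9, 32 and 39, and 0 and 1.

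For each of these genes, both Pngl-/- libraries were under every control library, and the Pngl+/- libraries lay between. On library sizes scaled by TMM, RpL22-like was 40.8-fold higher in y w than in Pngl-/- (95% exact interval 11.03 to 341.4, counting error only), RpS19b 24.8-fold (9.46 to 92.4) and RpL37-2 51.1-fold (8.87 to 2049). RpS10a, with 18 and 15 counts in y w, 2 and 2 in Pngl+/-, 5 and 22 in Pngl Dp/+ and 0 in both Pngl-/- libraries, was at least 8.39-fold lower in Pngl-/- than in y w, taking 3 counts over the group as the floor. RpL10Aa, at 9 and 9 counts in y w and 0 in Pngl-/-, was at least 4.58-fold lower.

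RpS5b was the exception, as it stayed detectable. It had 87 and 92 counts in y w, 32 and 17 in Pngl+/-, 55 and 76 in Pngl Dp/+, and 16 and 24 in Pngl-/-, which overlaps Pngl+/-. The ratio of y w to Pngl-/- was 3.41 (95% exact interval 2.41 to 4.94) and that of Pngl+/- to Pngl-/- was 1.21 (0.78 to 1.89).

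With no filter on low counts, Pngl-/- fell below y w in 6 of these second copies (23.5% of 15307 genes), below Pngl Dp/+ in the same number (20.6%) and below Pngl+/- in 4 (11%). Pngl+/- fell below y w in 5 members (15.6%), Pngl Dp/+ below y w in 1 (4.93%) and Pngl Dp/+ below Pngl+/- in 0 (6.72%). These second copies held at most 3.52% of the counts of their pair, the highest share being that of RpL22-like in the first y w library. RpS28a had 1 count in all libraries together, RpS28-like 10, and RpL7-like 0, with exons of another gene on the same strand over 1771 of its 1793 exonic bases.

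Several of these second copies are known from fly testis or germline, and markers of those tissues moved with them. The 11 testis markers summed to 751 and 875 counts in y w, 183 and 178 in Pngl+/-, 622 and 855 in Pngl Dp/+, and 3 and 7 in Pngl-/-, where 5 of the 11 were at 0 in both libraries. The 5 germline markers summed to 62 and 77, 25 and 11, 43 and 49, and 7 and 8 counts, with 2 of 5 at 0 in both Pngl-/- libraries. Their part in the change of the second copies was not tested.

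**Figure D5:**
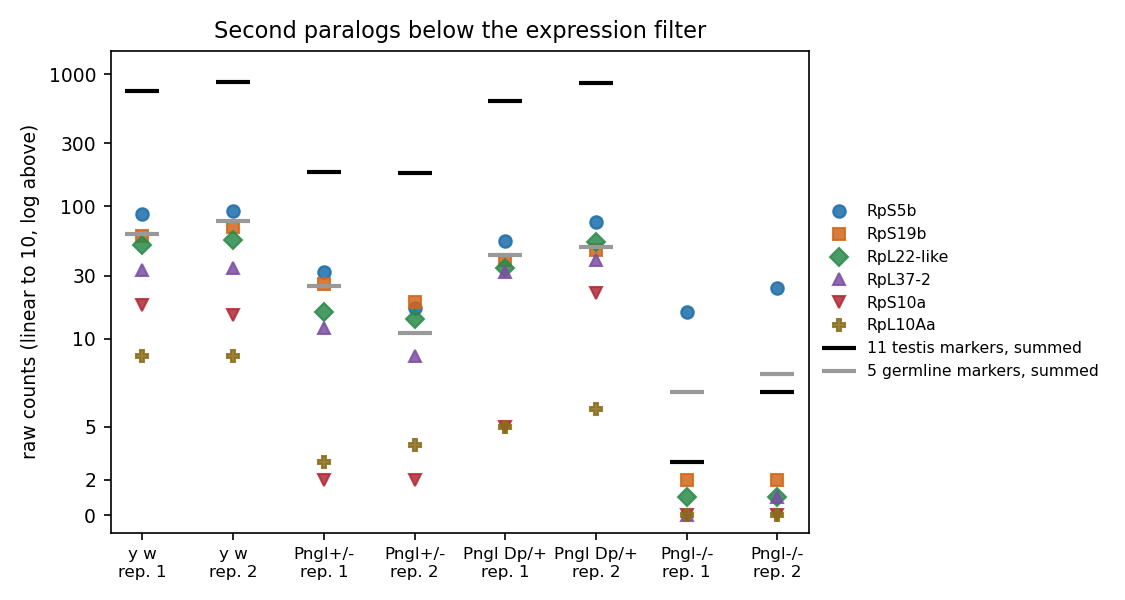
Raw counts of 6 second paralogs in each of the 8 libraries (symbols) with the summed counts of 11 testis markers (black bars) and 5 germline markers (grey bars); the axis is linear to 10 and logarithmic above. Counts of RpL22-like, RpS19b, RpL37-2, RpS10a and RpL10Aa are 0 to 2 in both Pngl-/- libraries, while RpS5b has 16 and 24.

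Mitochondrial ribosomal proteins, which build the separate ribosome of that organelle, were also higher in Pngl-/-. Of 72 tested among 73, 23 (31.9%) were called higher than in y w, 0 than in Pngl+/- and 11 (15.3%) than in Pngl Dp/+, where 17.9%, 7.58% and 12.1% of all genes were, and 0 were called lower in any of the 3. Medians were 0.51, 0.19 and 0.38. Between controls, Pngl+/- against y w had a median of 0.33, with 54 higher and 2 lower at the adjusted p alone (35.5% and 36.0% of all genes). Without scaling, their part of library counts was 0.137% and 0.138% in Pngl-/- and 0.133% in both Pngl Dp/+ libraries. It was 0.120% and 0.123% in Pngl+/-, and 0.127% and 0.123% in y w. The share called was near that of all genes against Pngl Dp/+. At an unadjusted p under 0.05 (edgeR), 39 were higher and 2 lower than in Pngl+/-, beside 2139 and 2719 of the 7665 genes. mRpS31 changed most, at 26.9 and 25.4 CPM in Pngl-/- and 11.7 and 11.7 in y w, a log2 fold change of 1.16 (SE 0.07). mRpL4 was at 38.9 and 36.8 CPM in Pngl-/- and 20.6 to 28.7 CPM in the controls, with log2 fold changes of 0.85, 0.46 and 0.81.

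Elongation and initiation genes were called in both directions. Of 10 tested elongation genes, 2 were called higher and 1 lower than in y w, 1 and 1 than in Pngl+/-, and 2 and 1 than in Pngl Dp/+, with medians of 0.08, -0.09 and 0.19. Of 25 initiation genes, 2 were higher and 3 lower, 0 and 1, and 3 and 1 in the same order, with medians of 0.12, 0.07 and 0.27. Among all genes, 17.9% were called higher and 24.4% lower than in y w, 7.58% and 13.1% than in Pngl+/-, and 12.1% and 22.2% than in Pngl Dp/+. At the adjusted p alone, 16 of the 25 initiation genes were higher and 6 lower than in Pngl Dp/+, and 6 of the 10 elongation genes higher and 1 lower (35.2% and 38.8% of all genes). eEF1beta, an exchange factor for the elongation factor that brings in tRNA, was at 1005 and 1001 CPM in Pngl-/- and 416.4 to 645.7 CPM in the controls, with log2 fold changes of 1.24, 0.64 and 0.91. eEF1alpha2, an isoform of that elongation factor, had log2 fold changes of -1.38, -0.94 and -0.86, and the initiation scaffold eIF4G1 had -1.12, -0.70 and -1.13. The poly(A)-binding protein gene pAbp, with -0.86 against y w, was also lower.

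Few ribosome assembly genes were called against y w and Pngl+/- with the 1.5-fold minimum. Of 35 tested, 3 were called higher and 2 lower than in y w, 3 and 1 than in Pngl+/-, and 8 and 1 than in Pngl Dp/+, with medians of 0.16, 0.21 and 0.43. The shares called higher were 8.57%, 8.57% and 22.9%, beside 17.9%, 7.58% and 12.1% of all genes. Those called lower were 5.71%, 2.86% and 2.86%, beside 24.4%, 13.1% and 22.2%. At the adjusted p alone, 14 were higher and 8 lower than in y w (38.9% and 39.5% of all genes). Against Pngl+/- these were 17 and 1 (26.2% and 33.5%), and against Pngl Dp/+ 27 and 2 (35.2% and 38.8%). Controls also differed: in Pngl Dp/+ against y w, 1 was higher and 24 lower (27.4% and 25.2%), with a median of -0.31. Non1, related to the yeast GTPase Nog1 of large subunit assembly, was at 329.0 and 330.4 CPM in Pngl-/- and 163.3 to 211.8 CPM in the controls. Its log2 fold changes were 0.64 (SE 0.03), 1.01 (SE 0.03) and 0.81 (SE 0.03), and like RpL24-like it was called higher against all 3 controls. Nop17l was lower, at 14.7 and 15.0 CPM in Pngl-/- and 21.3 to 29.7 CPM in the controls, with log2 fold changes of -0.53 (SE 0.08), -0.79 (SE 0.08) and -0.94 (SE 0.07), the first of them under the 1.5-fold line.

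RNA polymerase I subunits had medians of 0.26, 0.20 and 0.24, with 1 of 7 called higher than in y w. That gene was Polr1F, at 6.40 and 5.41 CPM in Pngl-/- and 3.71 to 5.01 CPM in the controls, with log2 fold changes of 0.66, 0.36 and 0.38. Polr1C had 0.48, 0.36 and 0.57 and was not called, and the 7 snoRNA host genes all stayed below the filter.

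Of 22 regulators of growth and ribosome stress, 1 was called higher and 7 (31.8%) lower than in y w, 0 and 2 (9.09%) than in Pngl+/-, and 1 and 9 (40.9%) than in Pngl Dp/+, beside 24.4%, 13.1% and 22.2% of all genes called lower. Against y w and Pngl+/- these shares were near those of all genes. Myc, a transcription factor that drives ribosome production in flies, was at 6.30 and 7.10 CPM in Pngl-/-, 15.1 and 13.98 in y w, 9.22 and 7.46 in Pngl+/-, and 12.8 and 12.8 in Pngl Dp/+, a log2 fold change of -1.11 (SE 0.11) against y w and -0.32 (SE 0.13) against Pngl+/-. Mnt, which opposes Myc, had -2.01 (SE 0.11), -1.30 (SE 0.13) and -1.82 (SE 0.11) in the 3 comparisons. The insulin receptor gene InR had -2.02 (SE 0.14) against y w and -0.37 (SE 0.18, adjusted p = 0.103 by edgeR) against Pngl+/-.

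Xrp1, a factor induced in ribosomal protein mutants of the fly, was at 199.1 and 205.0 CPM in Pngl-/-, 205.9 and 202.0 in Pngl+/-, 253.7 and 249.4 in y w, and 244.3 and 253.3 in Pngl Dp/+. It was lower than in y w by a log2 fold change of -0.32 (SE 0.04), under the 1.5-fold line. S6k, the kinase of RpS6, had -0.43 (SE 0.06) against y w. Thor, the translation repressor 4E-BP, stood out in Pngl Dp/+ at 421.5 and 417.5 CPM, against 190.9 and 187.7 in Pngl-/- and 191.2 to 230.2 in the other controls.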

How the data were processed

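RNA-seq of 8 midgut libraries, 2 per genotype, was analysed. The deposited values are raw counts per gene without normalization. The authors made them by adapter trimming (cutadapt), alignment to the dm6 assembly (STAR) and assignment of every read touching the merged exons of a FlyBase gene (the submitters' processing notes list cutadapt 1.4, STAR 2.5.3 and edgeR). The use of strand and of multiply aligned reads in counting is not given in the sources used here. Names came from the reference for 17582 of 17713 genes, and positions from an annotation of the dm6 assembly. RpS12 was matched by its older identifier.

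All libraries were fitted together in edgeR 4.0.16 (R 4.3.3) with 1 mean per genotype and no block, on genes with at least 5 CPM in at least 2 libraries, with TMM factors from those genes. The quasi-likelihood test was used, and p-values were adjusted by Benjamini-Hochberg over all tested genes. Nothing in the labels says whether the 2 libraries come from separate cultures of larvae, so p-values measure the spread between these libraries, with a common dispersion of 0.00194. Totals of 20414011 to 28382919 counts set the precision. Summaries used pandas 2.3.3 and scipy 1.17.1 under Python 3.11.15, and scripts were tested on simulated data.

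Alternatives were other scalings, filters, tests and designs, DESeq2 1.42.0, and leaving out each library. Genes named are both copies of each paralog pair, the "-like" genes, the 5 largest and 5 smallest mean log2 fold changes over the comparisons with Pngl-/-, 10 members chosen for their roles, 4 regulators, and the 2 largest changes in each related list. Members, lists and rules were chosen with earlier results of these data known. Promoter and protein sequences were not analysed here, and values of 1 member are not reported here.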

Additional observations from a re-analysis of the deposited data

How the results depend on the processing

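With 2 libraries per genotype, effects near 1.5-fold cannot be placed firmly on either side of that line, and counts of called members moved accordingly. Direction held for called members: under no alternative did a named member called in the main analysis change sign. The 3 comparisons with Pngl-/- kept a positive median under all settings. Direction did not hold for every member that passed on p alone. Without composition normalization, 68 members were higher and 4 lower than in y w at an unadjusted p under 0.05 (edgeR). The main analysis had 82 and 0. RpS3A, RpL6 and RpS4 then lay under y w, at log2 fold changes of -0.18, -0.15 and -0.11. Genes below the filter were at a few counts per library, where depth limits every ratio.

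In the main analysis 58, 2 and 45 members were called higher than in y w, Pngl+/- and Pngl Dp/+. These counts became 2, 2 and 0 without composition normalization, 77, 11 and 77 with TMM factors from all genes, 72, 6 and 73 at a CPM of at least 1, 77, 11 and 77 with no filter, 40, 1 and 24 when the test itself was set at 1.5-fold, and 82, 79 and 83 with no minimum fold change. The numbers called lower, 0 in the main analysis, were 4, 3 and 4 at a CPM of at least 1 and 6, 4 and 6 with no filter. In Pngl+/- against y w, 3 higher became 14 with TMM factors from all genes, 1 with upper-quartile factors, 0 without composition normalization, 6 at a CPM of at least 1, 14 with no filter, 1 in the test against 1.5-fold and 68 with no minimum fold change. Those lower, 0 in the main analysis, became 1 with upper-quartile factors, 2 without composition normalization (RpL3 and RpL6), 4 at a CPM of at least 1, 5 with no filter and 4 with no minimum fold change. For Pngl Dp/+ over y w, 29 members lay higher and 9 lower with no minimum fold change, and 1 was lower at a CPM of at least 1 and with no filter. In Pngl Dp/+ against Pngl+/-, 2 were higher and 70 lower with no minimum fold change, 3 were higher at a CPM of at least 1 and 4 with no filter. A looser filter adds low-count members and also takes the TMM factors from a wider set of genes. With TMM factors from all genes and the same 84 members tested, 77, 11 and 77 were called higher in Pngl-/-, as with no filter. In Pngl+/- against y w the number higher was likewise 14 under both. The cause of these moves was not tested further.

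Medians of the members reversed only between controls: from 0.26 to -0.10 in Pngl+/- against y w and from -0.23 to 0.086 in Pngl Dp/+ against Pngl+/- without composition normalization, and from 0.05 to -0.017 in Pngl Dp/+ against y w with upper-quartile factors.

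Leaving out each library gave 57 to 69 members higher and 0 to 1 lower in Pngl-/- than in y w, 2 to 8 and 0 to 0 than in Pngl+/-, 45 to 66 and 0 to 0 than in Pngl Dp/+, 3 to 6 and 0 to 2 in Pngl+/- against y w, 0 to 0 and 0 to 1 in Pngl Dp/+ against y w, and 0 to 0 and 0 to 1 in Pngl Dp/+ against Pngl+/-. The count against Pngl+/- was 8 without Pngl+/- replicate 2 and 4 without Pngl-/- replicate 2, and that of Pngl+/- against y w was 6 without y w replicate 2 and 5 without Pngl+/- replicate 1.

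The labels give replicate numbers but not what they share. A replicate block left the counts at 58, 2 and 45, and a crossed pairing, added after seeing the data, gave 58, 2 and 46. A planned look at promoter features was not run.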
